A study of Rattus norvegicus with 91 samples.

Results

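The MHC class II genes described here are RT1-Bb, RT1-Ba, RT1-Da, RT1-Db1, Cd74 and Ciita, measured in the ventral tegmental area of rats. Their members were all probe sets of the Affymetrix array whose platform annotation gives exactly 1 of these 6 symbols, which was 12 of 31099 probe sets. RT1-Ba has 4 probe sets, RT1-Bb, RT1-Db1 and Ciita have 2 each, and RT1-Da and Cd74 have 1 each. The genes were chosen by measured values: RT1-Bb signals were known to be lower in HAD1 and HAD2 when they were proposed. The differences of the members in those 2 pairs are therefore a description: no p is given for them, and no count of calls there is read as a result.

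Tissue came from 91 rats, 1 array per animal, of 10 lines selectively bred for alcohol consumption. In each of 5 pairs the line named first drinks much and the line named second little: 8 HAD1 and 10 LAD1 rats, 8 HAD2 and 9 LAD2, 9 P and 10 NP, 10 AA and 10 ANA, and 8 sP and 9 sNP. The labels give the line, the pair and the animal, and no agent, age or sex is stated in the sources used here. The values are log2 signals made by the authors with RMA, which removes background, makes the signal distributions of jointly processed arrays alike and combines probes into probe sets. A difference of 1 is a change of 2-fold.

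MHC class II molecules are pairs of an alpha and a beta chain that show peptides from taken-up proteins to helper T cells. In the rat, RT1-Ba and RT1-Bb encode the chains of RT1-B, the counterpart of human HLA-DQ, and RT1-Da and RT1-Db1 those of RT1-D, the counterpart of HLA-DR. Cd74 encodes the invariant chain that fills the groove during assembly, and Ciita the coactivator that acts through factors bound to the X and Y boxes of class II promoters. In brain tissue, class II is known mainly from perivascular and meningeal macrophages, dendritic cells and activated microglia.

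The promoters are shown because the genes are read together through these boxes. Printed are the 150 bases before the start of each gene, 5′ to 3′ on the strand of the gene, from RefSeq on the GRCr8 assembly, for the 5 members found in the promoter table, which did not list Ciita. Capitals mark matches to GATTGG, the core of the Y box, and to AGNNACNGATG, the letters shared by the 11-base windows at the X box of RT1-Da, RT1-Db1 and RT1-Bb, chosen after these sequences had been seen. Both strands were searched, and the 2 patterns do not overlap in any of the 5 windows.
RT1-Da, chr20:4515265-4515414, plus strand: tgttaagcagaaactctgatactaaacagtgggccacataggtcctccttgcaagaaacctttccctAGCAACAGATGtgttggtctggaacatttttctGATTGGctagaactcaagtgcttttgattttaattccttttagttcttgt
RT1-Db1, chr20:4560163-4560312, minus strand: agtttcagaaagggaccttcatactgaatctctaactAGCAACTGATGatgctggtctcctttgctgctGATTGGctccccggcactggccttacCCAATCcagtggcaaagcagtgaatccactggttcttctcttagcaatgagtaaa
RT1-Ba, chr20:4576907-4577056, plus strand: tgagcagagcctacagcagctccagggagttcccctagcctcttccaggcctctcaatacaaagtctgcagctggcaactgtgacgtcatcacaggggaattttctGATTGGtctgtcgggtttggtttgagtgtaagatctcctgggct
RT1-Bb, chr20:4604119-4604268, minus strand: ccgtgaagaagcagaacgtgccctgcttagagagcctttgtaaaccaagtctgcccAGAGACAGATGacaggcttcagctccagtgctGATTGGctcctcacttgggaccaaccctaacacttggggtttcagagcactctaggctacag
Cd74, chr18:56527056-56527205, plus strand: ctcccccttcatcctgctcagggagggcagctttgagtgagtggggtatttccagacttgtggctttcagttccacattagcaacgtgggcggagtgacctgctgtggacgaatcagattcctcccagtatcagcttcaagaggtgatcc
RT1-Da, RT1-Db1 and RT1-Bb held an X match 21 to 22 bases before a Y match. RT1-Ba held the Y match alone, and Cd74 neither set of letters in this window. Neither gene helped to define the X pattern, so a missing match does not show that a box is missing. Of 33469 promoter windows of the same length, 9.35% held GATTGG, 0.457% held AGNNACNGATG, and 6 (0.0179%) held both in this order within 40 bases. The 6 windows were those of RT1-Bb, RT1-DOb, RT1-Da, RT1-Db1, RT1-Db2 and Slc4a5. Since the X pattern was taken from 3 of the promoters, the share only describes how rare the letters are. RT1-Db1 had a further Y match on the opposite strand.

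Before any result, the arrays that stood apart have to be named. Clustering of the value distributions into 5 sets put the arrays labelled AA 1 with the P/NP arrays, and those labelled AA 19 and ANA 20 with the sP/sNP arrays. Between the arrays labelled P and NP and between those labelled sP and sNP, 0 probe sets were called by limma, although 1275 and 242 of 21204 had an unadjusted p under 0.05 against 1060.2 expected by chance. Labels outside the HAD and LAD lines may not match the values, which was not tested, and these groups are called arrays labelled with a line. Within HAD1/LAD1, the array LAD1 37 had the lowest LAD1 signal of RT1-Bb (6.26) and the highest of RT1-Ba 1381593_x_at and 1392334_at (9.54 and 9.52), so values are also given without it. The line means of the 3'-minus-5' Gapdh signal, a sign of RNA quality, were similar within each pair (1.89 for HAD1 and 1.78 for LAD1, 3.42 for HAD2 and 3.58 for LAD2, 0.501 for the arrays labelled AA and 0.567 for ANA). The array AA 1 stood at 0.149, against 0.383 to 0.635 on the other arrays labelled AA or ANA. The means differed between pairs, and levels were not compared between pairs.

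Markers of the dopamine neurons of the region were high on average, with line means of 12.94 to 14.98 for Th and 12.7 to 14.7 for Slc6a3, but not on every array, with lowest values of 8.23 and 7.98. The mean of 4 dopamine neuron genes fell to 8.70 among the arrays labelled P (median 12.98) and to 8.30 among those labelled NP (median 12.80), and stayed at 12.96 or above in the other lines. Of the 5 T cell markers, none reached the level needed for a test in any line, with Cd3e between 5.17 and 6.10 on every array by the brighter of its 2 probe sets and line means of 4.64 to 5.07 by the other. The B cell genes Cd79b and Ms4a1 did not reach that level either. Of the microglial genes, Aif1 ranged from 7.08 to 10.7 over all arrays by its brighter probe set, with line means of 6.28 to 6.57 by the other, and Cx3cr1 from 6.78 to 8.28, and among genes of border macrophages Mrc1 reached the level for a test while Cd163 did not. Itgax, a dendritic cell gene, lay between 4.70 and 6.21. In bulk tissue, fewer cells of a type and less RNA per cell cannot be told apart.

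Probe sets entered the tests when at least 1 line had a mean of 7.02 or more, which is the 40th percentile of the signals. This kept 21204 probe sets in all and 7 of the 12 members: RT1-Bb 1371033_at, RT1-Ba 1370822_at, 1381593_x_at and 1392334_at, RT1-Da 1370883_at, RT1-Db1 1370383_s_at and Cd74 1367679_at. Both Ciita probe sets, RT1-Bb 1371065_at, RT1-Ba 1377334_at and RT1-Db1 1370382_at stayed below and are described without a test. RT1-Bb 1371033_at passed through the ANA mean of 7.09 alone. The endings matter for what a value means: probes of an _s_at set match several transcripts, those of an _x_at set may bind other sequences, and with the closely similar copies of RT1 genes the source of a signal is uncertain.

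RT1-Bb, the beta chain of RT1-B, was lower in the high-consumption line of 3 pairs. In HAD2 the signals of 1371033_at were 5.33 at the lowest, 5.54 at the median and 5.88 at the highest, and in LAD2 they were 6.17, 6.29 and 6.44. All 8 HAD2 arrays lay below all 9 LAD2 arrays, a separation found in 2.04% of the tested probe sets of this pair. The difference was -0.72 ± 0.17 (HAD2 minus LAD2, log2, ± standard error), a fold of 1.64. In HAD1 the signals were 5.86, 6.07 and 6.58 and in LAD1 6.26, 6.86 and 7.38. Here 5 of 8 HAD1 arrays lay below every LAD1 array and 8 of 10 LAD1 arrays above every HAD1 array. The difference was -0.74 ± 0.17, and without the array LAD1 37 it was -0.81.

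Among the arrays labelled AA, RT1-Bb 1371033_at ranged from 5.15 over a median of 5.91 to 6.73, and among those labelled ANA from 5.97 over 7.26 to 7.55. Of the 10 arrays labelled ANA, 9 lay above every array labelled AA, and the tenth was ANA 20, one of the 3 arrays that stood apart. The difference was -1.23 ± 0.16 (AA minus ANA, log2, 10 and 10 arrays), 2.34-fold, with an adjusted p of 1.62e-08 over all tested probe sets (limma). Without the 3 arrays it was -1.38 ± 0.16 (adjusted p 4.58e-10), and leaving out any single array kept it between -1.35 and -1.15. Since the probe set passed the filter only through ANA, the test was repeated with no filter, which gave an adjusted p of 1.99e-08.

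In the other 2 pairs RT1-Bb did not separate the labelled groups, and the doubt about these labels bears on this result. Signals of 1371033_at in the arrays labelled P (5.85 to 6.53, median 6.07) overlapped those labelled NP (5.77 to 6.69, median 6.05), with a difference of 0.05 and a 95% interval from -0.27 to 0.37. Those labelled sP (5.51 to 6.51, median 6.13) overlapped those labelled sNP (5.38 to 6.93, median 5.88), with a difference of 0.10 and an interval from -0.24 to 0.44. Both intervals leave out the AA/ANA difference of -1.23. Signals also changed with the animal number. The arrays labelled sP 2 to 5 lay at 6.31 to 6.51 and sP 6 to 9 at 5.51 to 5.96. Those labelled sNP 1 to 5 lay at 5.38 to 6.07 and sNP 6 to 9 at 5.88 to 6.93. Those labelled P 1 to 5 lay at 6.07 to 6.53 and NP 1 to 5 at 5.77 to 6.12. Those labelled P 7 to 10 lay at 5.85 to 6.13 and NP 6 to 10 at 5.91 to 6.69. This split was seen after the fact and was not tested. The RT1-Bb difference depended on the pair among P/NP, AA/ANA and sP/sNP, with an adjusted p of 2.67e-05 by a moderated F test in limma. That test called 1.08% of all tested probe sets. It used the same filter, passed through ANA alone, and the doubted labels of P/NP and sP/sNP. The F test is therefore no support beyond the AA/ANA difference. The second RT1-Bb probe set, 1371065_at, lay between 4.13 and 5.03 on all arrays, and its differences ran from -0.10 in HAD1/LAD1 to 0.01 in HAD2/LAD2, so it showed no drop of this size in any pair.

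**Figure D1:**
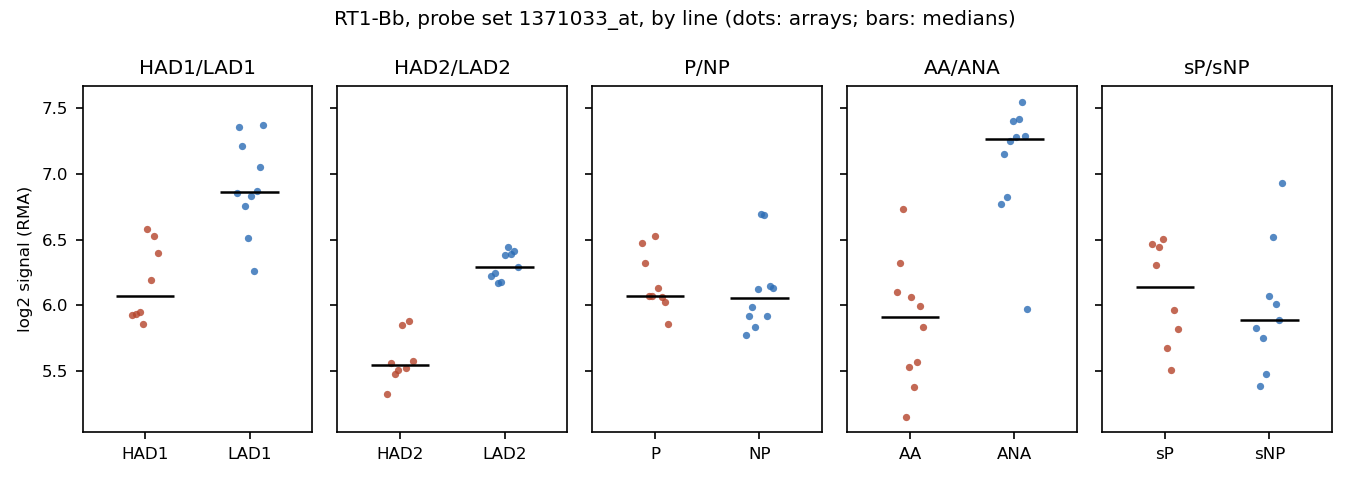
Log2 signal of RT1-Bb 1371033_at (y axis) on each array, 1 panel per line pair, with the high-consumption line on the left, dots for arrays and bars for medians. The HAD2 arrays (5.33 to 5.88) lie below all LAD2 arrays (6.17 to 6.44), and 9 of 10 arrays labelled ANA lie above all those labelled AA. The arrays labelled P and NP overlap, as do those labelled sP and sNP, with levels to be compared within a panel only.

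RT1-Ba, the alpha chain that pairs with RT1-Bb, gave different answers by probe set. Signals of 1370822_at were higher in arrays labelled AA (6.47, 6.98 and 7.77 at the lowest, median and highest) than in those labelled ANA (6.23, 6.51 and 6.82). Of the 10 arrays labelled AA, 5 lay above every array labelled ANA. The difference was 0.50 ± 0.11 (adjusted p 0.00111, limma), 1.42-fold, and 0.59 ± 0.11 (adjusted p 0.000108) without the 3 arrays that stood apart. With the pair fitted alone its adjusted p was 0.0796, above the threshold of 0.05, so the call was lost. So in AA/ANA the alpha chain by this probe set and the beta chain by 1371033_at differed in opposite directions. Whether sequence differences under the probes enter the values of the RT1 probe sets was not tested.

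Probe sets 1381593_x_at and 1392334_at did not share that difference, at -0.17 ± 0.13 and -0.05 ± 0.09 in AA/ANA (adjusted p 0.683 and 0.918, limma). In HAD1 they were higher instead. Signals of 1392334_at were 8.76, 9.24 and 9.67 in HAD1 and 8.43, 8.73 and 9.52 in LAD1, with a difference of 0.44 ± 0.10. Signals of 1381593_x_at were 8.46, 9.01 and 9.48 in HAD1 and 7.96, 8.44 and 9.54 in LAD1, with a difference of 0.50 ± 0.14. The highest LAD1 value of both was LAD1 37, and without it the differences were 0.52 and 0.62. Without HAD1 27 or HAD1 29 the difference of 1381593_x_at was 0.43. In this pair 1370822_at went the other way, at -0.24 ± 0.12.

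Probe set 1377334_at was too dim for a test but showed steps within lines. In HAD1, 5 of 8 arrays had signals of 5.91 to 6.47 and the other 3 of 5.10 to 5.25, while all LAD1 arrays lay between 4.95 and 5.37. In HAD2 the signals ran from 5.05 over 5.82 to 6.68, with 6 of 8 arrays above every LAD2 array (5.10 to 5.38). Among the arrays labelled AA, 3 lay at 5.91 to 6.31 and the other 7 at or below 5.35, and those labelled ANA lay between 5.01 and 5.54. The highest of the 3 was AA 1, which stood apart. The differences were 0.67 in HAD1/LAD1, 0.59 in HAD2/LAD2 and 0.22 in AA/ANA. Without the 3 arrays that stood apart the AA/ANA difference was 0.12.

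The 3 low HAD1 rats, animals 25, 27 and 29, were also the 3 lowest HAD1 rats for RT1-Db1 1370383_s_at (5.76, 5.83 and 5.89, against 6.27 to 6.84 in the others) and the 3 highest for RT1-Ba 1381593_x_at (9.16, 9.48 and 9.47, against at most 9.03). Among the arrays labelled NP, the 3 lowest for 1377334_at (animals 10, 9 and 6, at 5.47, 5.66 and 5.80) were likewise the 3 lowest for RT1-Db1 (6.33, 6.54 and 5.64, against 7.65 to 9.45 in the others). The 2 lowest of those labelled P, animals 4 and 2 (5.62 and 5.62), were the lowest for RT1-Db1 as well (6.45 and 6.57). Over all 91 arrays, deviations from the line mean correlated at r = 0.45 between these probe sets and at r = -0.37 between 1377334_at and 1381593_x_at. Both r are descriptions after the pattern had been seen.

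**Figure D2:**
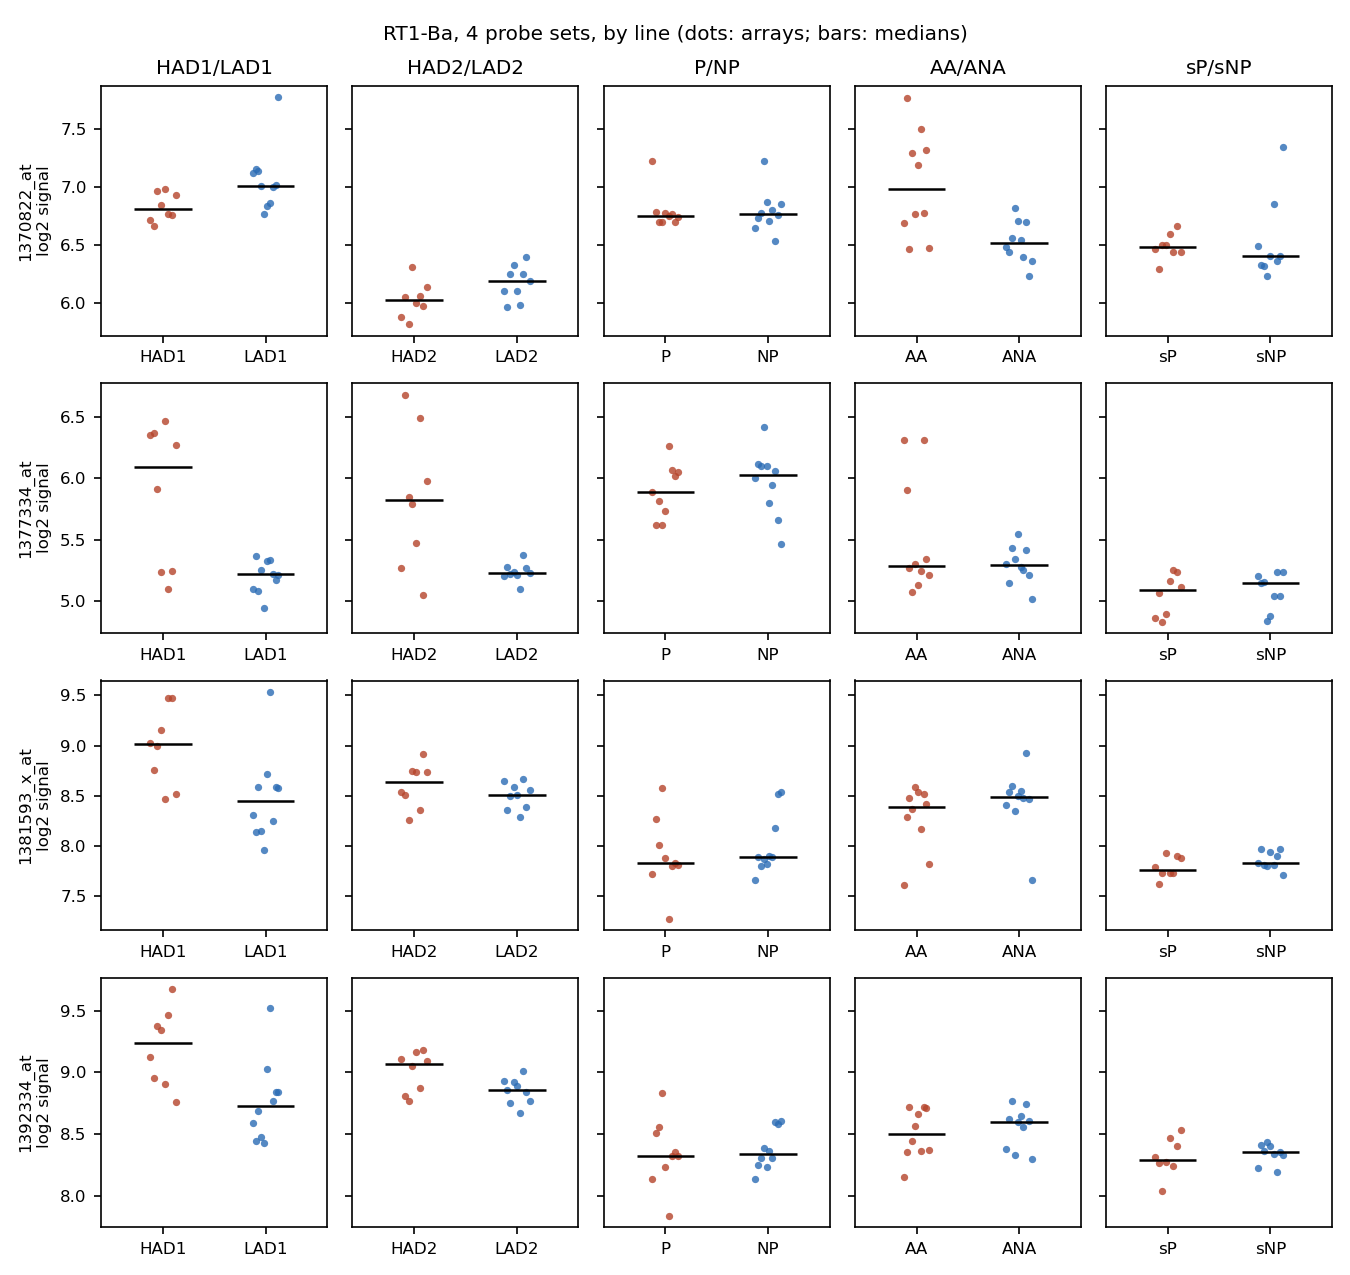
Log2 signal of the 4 RT1-Ba probe sets (rows, each with its own y axis) on each array, 1 column per line pair, with dots for arrays and bars for medians. Arrays labelled AA lie higher for 1370822_at, while 1381593_x_at and 1392334_at are higher in HAD1, and 1377334_at splits the HAD1 arrays into 5 at 5.91 to 6.47 and 3 at 5.10 to 5.25.

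RT1-Da, the alpha chain of RT1-D, and Cd74 varied widely among rats of 1 line, with a spread within lines larger than that of 98.4% and 98.9% of the tested probe sets. RT1-Da signals in the arrays labelled AA were 6.08, 7.85 and 8.83, and in those labelled ANA 5.87, 6.88 and 8.16. The groups overlapped, with 3 arrays labelled AA above every array labelled ANA. The difference was 0.70 ± 0.25 (adjusted p 0.112, limma) and did not pass the threshold. Without the 3 arrays that stood apart it was 0.84 ± 0.25 with an adjusted p of 0.0329, and without AA 19 alone 0.89 (adjusted p 0.0168). Leaving out AA 3 gave an adjusted p of 0.272 (limma), and 1 of 20 single omissions passed.

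Cd74 signals were 7.17, 8.75 and 9.996 in the arrays labelled AA and 6.77, 7.59 and 9.28 in those labelled ANA. The difference of 0.83 ± 0.28 had an adjusted p of 0.0802 (limma), and 0.92 ± 0.30 with 0.0516 without the 3 arrays. Leaving out AA 19, ANA 8 or ANA 16 singly gave 0.998, 0.996 and 0.975, each with an adjusted p below the threshold (0.0192, 0.0248 and 0.0313). Leaving out AA 3 gave 0.68 with an adjusted p of 0.225 (limma), and 3 of 20 single omissions passed. Beside these values, 0 of the 9 tested microglial genes were called in AA/ANA by limma (1 of 11 probe sets at an unadjusted p under 0.05, that of Aif1, at 0.39 ± 0.15 with an adjusted p of 0.153), and the mean of the 10 genes ran from 8.43 to 9.23 in AA and from 8.47 to 8.92 in ANA. None of the 3 tested border macrophage genes was called either (0 at an unadjusted p under 0.05), and the mean of the 5 listed genes ran from 6.04 to 7.37 in AA and from 5.88 to 7.16 in ANA. Of all 21204 tested probe sets 3.94% were called in AA/ANA by limma, and 2913 had an unadjusted p under 0.05. The meningeal mean ran from 8.17 to 9.46 in AA and from 7.38 to 10.42 in ANA, with 10.42 in ANA 8 and 10.26 in ANA 16. It was 9.45 in AA 3, the highest AA array for Cd74, and 9.46 in AA 19, the lowest. The part of the meningeal mean in the Cd74 and RT1-Da values was not tested.

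In HAD1/LAD1 RT1-Da was 6.95, 8.35 and 8.68 in HAD1 and 8.13, 8.53 and 10.7 in LAD1, with a difference of -0.61 ± 0.27. The highest value was the array LAD1 40, and without it the difference was -0.41. Cd74 was 7.17, 7.69 and 8.22 in HAD1 and 6.78, 7.58 and 9.94 in LAD1, with a difference of -0.01 ± 0.30, and again LAD1 40 was the highest. In HAD2/LAD2 the differences were 0.45 ± 0.27 for RT1-Da and 0.38 ± 0.31 for Cd74, with overlapping values. In P/NP and sP/sNP both genes differed by at most 0.13 in size, with 95% intervals inside -0.74 and 0.55.

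RT1-Db1 1370383_s_at, the beta chain partner of RT1-Da, had the widest spread of the members, larger within lines than that of 99.3% of the tested probe sets. It passed the filter through the P and NP means of 7.94 and 8.04. Signals ran from 6.45 over 8.16 to 9.43 in the arrays labelled P and from 5.64 over 8.69 to 9.45 in those labelled NP, and the difference was -0.11 ± 0.32 (adjusted p 0.992, limma). In HAD2 they were 5.00, 5.71 and 6.81 and in LAD2 4.96, 5.09 and 5.41, with 6 of 8 HAD2 arrays above every LAD2 array and a difference of 0.62 ± 0.33. In AA/ANA the difference was 0.21 ± 0.31 (adjusted p 0.881, limma). The other probe set of the gene, 1370382_at, had line means of 4.09 to 4.45 and differences of at most 0.05 in size.

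Ciita, the coactivator that most class II transcription needs, was dim in every line. Line means ran from 5.85 to 6.74 for 1369214_a_at and from 5.16 to 5.74 for 1379381_at. The line differences lay between -0.08 and 0.06 over both probe sets and all 5 pairs, with standard errors from the line SDs of 0.04 to 0.09. The largest in size was -0.076 in HAD1/LAD1 by 1379381_at, with a standard error of 0.043. The largest SD within a line was 0.24 and 0.20 for the 2 probe sets. Neither was tested at this signal.

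In the fit over all probe sets, 3 of the 7 members fell under the threshold in HAD1/LAD1, where 4.91% of all tested probe sets did. In HAD2/LAD2 it was 1 of 7, where 6.15% did. Nothing is read from these 2 counts, because RT1-Bb was chosen by its values in these pairs. In AA/ANA 2 of 7 passed, RT1-Ba 1370822_at and RT1-Bb 1371033_at, against 3.94% of all tested probe sets. The values of the lines did not overlap for 1 of 7 members in HAD2/LAD2 and for 0 of 7 in the other pairs, against 2.04% of all tested probe sets in HAD2/LAD2, 0.212% in HAD1/LAD1, 0.0283% in AA/ANA, 0.00472% in sP/sNP and 0% in P/NP. In P/NP and in sP/sNP 0 of 7 passed by limma, against 0% of all tested probe sets. At an unadjusted p under 0.05 it was 0 of 7 in both, where 1275 and 242 of 21204 passed. The median difference of the 7 was 0.21 in AA/ANA, beside 0.000275 over all tested probe sets.

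**Figure D3:**
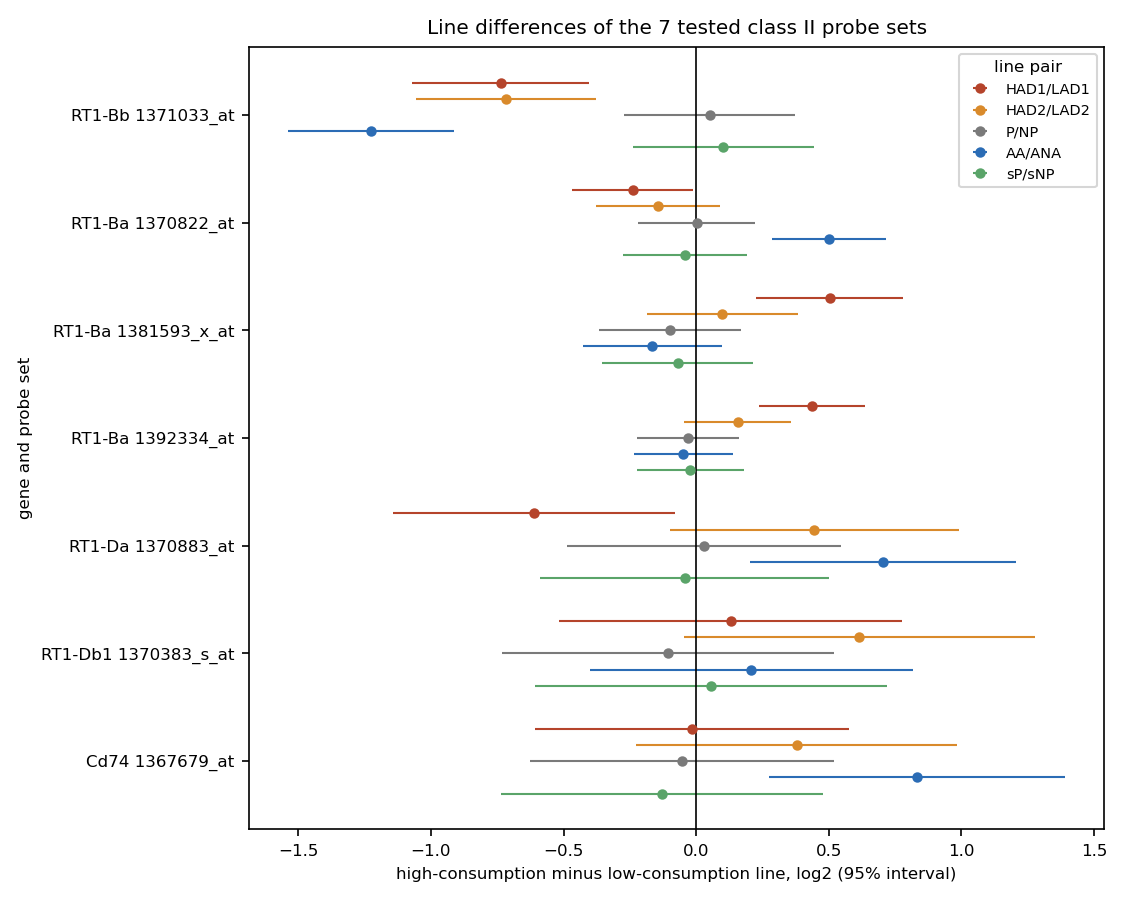
Difference of the high- minus the low-consumption line on the log2 scale (x axis) with its 95% interval from the fit over all arrays, for the 7 tested probe sets (y axis) in 5 line pairs (colours). RT1-Bb lies below 0 in HAD1/LAD1, HAD2/LAD2 and AA/ANA (-0.74, -0.72 and -1.23), RT1-Ba 1370822_at above 0 in AA/ANA, and all members near 0 in P/NP and sP/sNP.

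Whether the genes vary together among rats of 1 line is a question the line differences do not touch. Cd74 was set against each chain gene within each of the 10 lines, which gave 40 relations, each tested by permutation of the arrays (exact with 8 or 9 arrays, 100000 resamples with 10, 2-sided) and adjusted over the 40. Cd74 and RT1-Da rose and fell together: r was above 0 in 10 of 10 lines, from 0.42 in LAD2 to 0.98 in sNP with a median of 0.91. In 7 lines the adjusted permutation p was under 0.05, by Pearson's r and by Spearman's rho. In the arrays labelled sNP r was 0.98 and rho 0.93 (9 arrays, exact permutation p 3.58e-05, adjusted 0.000933), and in those labelled sP r was 0.92 and rho 0.93 (8 arrays, exact permutation p 0.000273, adjusted 0.00218). In LAD1 r was 0.97 and rho 0.90 (10 arrays, permutation p 5.00e-05, adjusted 0.000933).

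Without the 2 arrays farthest from the Cd74 median of each line, r of Cd74 with RT1-Da stayed above 0 in 10 of 10 lines, from 0.24 to 0.94 with a median of 0.81. It then passed the threshold in 3 lines, LAD1 (r = 0.92), sNP (r = 0.94) and sP (r = 0.93), by permutation over 6 to 8 arrays. In the arrays labelled AA, ANA, P and NP, where it had passed with all arrays, r was 0.83, 0.75, 0.86 and 0.80 without the 2 arrays, with adjusted permutation p of 0.102, 0.168, 0.168 and 0.168 over 7 or 8 arrays. In HAD1, HAD2 and LAD2 r with all arrays was 0.70, 0.58 and 0.42, with adjusted permutation p of 0.126, 0.323 and 0.585. Without the 2 arrays r was 0.24, 0.39 and 0.45 there, with adjusted permutation p of 0.967, 0.889 and 0.808. Without AA 1, AA 19 and ANA 20, r was 0.91 in the arrays labelled AA and 0.93 in those labelled ANA (adjusted p 0.00518 and 0.00312 by exact permutation).

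**Figure D4:**
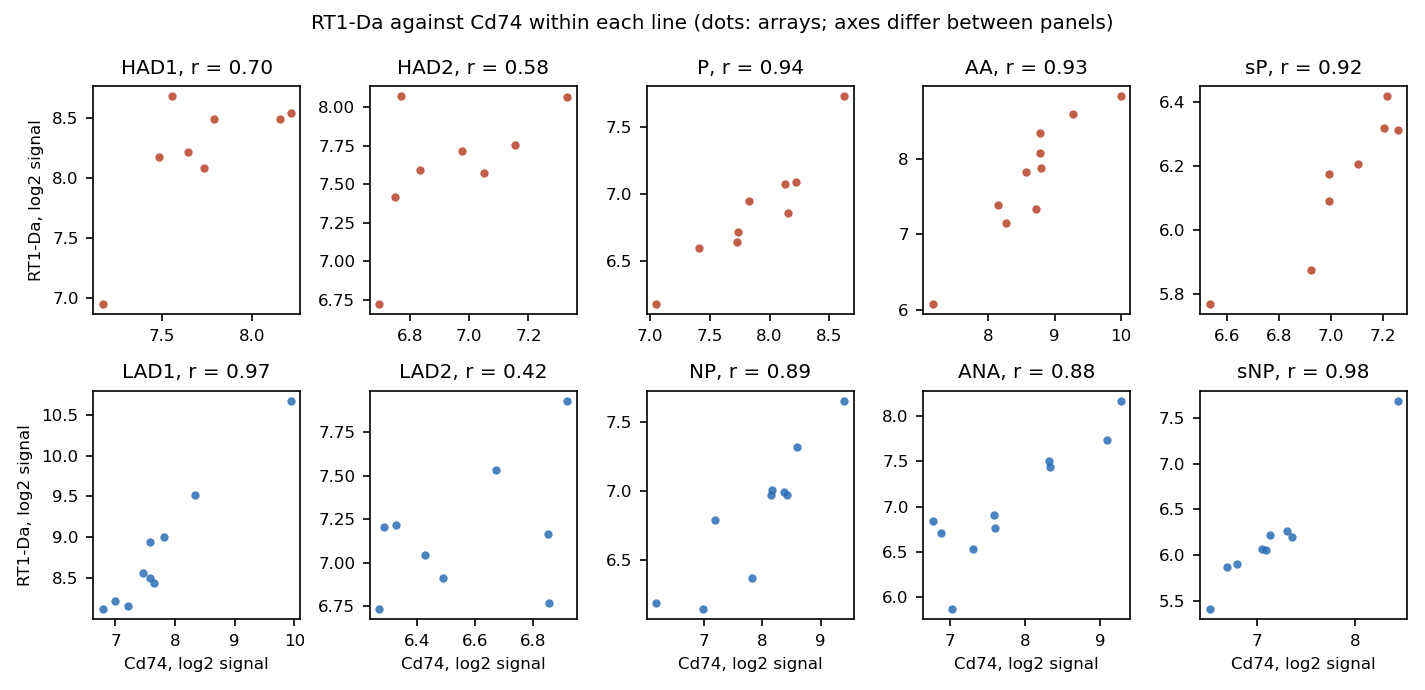
RT1-Da 1370883_at (y axis) against Cd74 1367679_at (x axis), log2 signals, 1 panel per line with high-consumption lines above and dots for arrays. The points rise together in most lines, with r from 0.42 in LAD2 to 0.98 in sNP, and the single highest array sets much of the range in LAD1 and sNP.

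The relations of the other chains with Cd74 varied more from line to line, and the chains were not tested against each other. RT1-Db1 correlated with Cd74 in 3 lines after adjustment, LAD1 (r = 0.96), those labelled ANA (r = 0.89) and those labelled AA (r = 0.77). By rank it did so in ANA alone (rho = 0.92), with rho of 0.58 in LAD1 and 0.65 in AA. Without the 2 farthest arrays no line passed, with r of 0.71 in LAD1, 0.71 in ANA and 0.32 in AA. RT1-Bb correlated with Cd74 in 1 line by r, sNP (r = 0.82), and in 0 by rho or without the 2 arrays, and its r ran from -0.72 to 0.82 over the lines. RT1-Ba by 1392334_at, its brightest probe set, did so in none, with r from -0.41 to 0.39 and a median of -0.11. As a description over 91 arrays with line means removed, r was 0.86 for Cd74 and RT1-Da, and RT1-Ba 1370822_at, the probe set that was higher in AA, had r of 0.64 with RT1-Da and 0.60 with Cd74. The pair 1381593_x_at and 1392334_at had r of 0.87 with each other.

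The genes with the pattern most like each member were taken from the same line-centred values of 91 arrays, with no test. For Cd74 they were Myl12a (r = 0.66), Nupr1 (0.66), S100a6 (0.65), Mgp (0.64) and Fbln1 (0.63), and for RT1-Da S100a6 (0.65), Nupr1 (0.63), S100a4 (0.60), Fbln1 (0.58) and Myl12a (0.58). Mgp and Fbln1 encode extracellular matrix proteins, and S100a4 and S100a6 calcium-binding proteins. For RT1-Db1 they were Glra1, a glycine receptor subunit (0.70), Kbtbd3 (0.66), Creg1 (0.66), Cpped1 (0.65) and Stk24 (0.63). For RT1-Ba 1392334_at they were RT1-T24-4, an MHC class I gene (0.64), Ppt1 (0.49), Cox6c-ps1 (0.48), Cxcr5 (0.42) and Tff3 (0.42). For RT1-Bb they were Galm (0.43), Tgm2 (0.42), Jhy (0.42), Ifitm1 (0.42) and Evc (0.41), the lowest top values of the 6 genes. For the dim Ciita 1369214_a_at they were Rab1b (0.58), Sptssb (0.57), Gsk3a (0.56), Surf4 (0.55) and Tmem221 (0.55).

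Marker lists moved beside some of these values, and their part in them was not tested. The mean of 4 meningeal and fibroblast genes (Col1a1, Col1a2, Dcn and Lum) had r of 0.48 with Cd74 and 0.42 with RT1-Da over 91 line-centred arrays. That of 5 border macrophage genes had r of 0.47 and 0.41, and that of 10 microglial genes 0.41 and 0.29. The array labelled sNP 9, the highest of its line for Cd74 and RT1-Da, had a meningeal mean of 10.7 against 8.17 to 9.67 in the other arrays labelled sNP. LAD1 40 had 8.36, within the LAD1 range of 7.88 to 8.77. Its means of the border macrophage and microglial genes were the highest of LAD1, at 7.14 and 8.86. The mean of 4 dopamine neuron genes had r of -0.39 with RT1-Db1. Among the arrays labelled NP the 3 lowest for RT1-Db1, animals 6, 10 and 9, had dopamine means of 13.32, 13.83 and 14.14, while NP 8, with the lowest dopamine mean of 8.30, had RT1-Db1 at 8.90. The mean of 3 dendritic cell genes, of which Flt3 alone reached the level for a test, had r of 0.43 with RT1-Db1.

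In the HAD/LAD pairs single markers differed as well. In HAD1 Pf4, a chemokine gene of macrophages and platelets, was lower (-0.91, adjusted p 2.36e-05, limma), as was Cx3cr1, the fractalkine receptor of microglia (-0.33). In HAD2 Pf4 was higher (0.52, adjusted p 0.0393, limma), as were both tested probe sets of P2ry12, a purine receptor of microglia (0.53 and 0.54). In each pair 1 of 9 tested microglial genes and 1 of 3 tested border macrophage genes were called by limma. Of all tested probe sets 4.91% were called in HAD1/LAD1 and 6.15% in HAD2/LAD2. The microglial genes did not move together: both P2ry12 probe sets were at 0.23 in HAD1/LAD1 and Cx3cr1 at -0.16 in HAD2/LAD2, none called. Border macrophage genes other than Pf4 differed in sign in HAD1, with Mrc1 at 0.29 ± 0.26 and Stab1 at -0.15 ± 0.19, neither called. Too dim for a test there, the Lyve1 probe sets were at 0.15 and 0.24 and Cd163 at -0.05. For HAD2, Mrc1 (0.03) and Stab1 (0.50) had the sign of Pf4, neither called. Pf4 thus took opposite directions in HAD1 and HAD2, and the part of the marker genes in the member values was not tested.

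Of 26 further genes of the class II pathway 21 had a probe set, with 25 probe sets tested. In AA/ANA 2 of 25 probe sets were called, where 3.94% of all tested were, with 0 genes up and 2 that fell: Creb1, a factor that binds class II promoters (-0.61 ± 0.13, adjusted p 0.000716), and Jak2, a kinase of the interferon gamma receptor (-0.24 ± 0.07, adjusted p 0.0437, both limma). In HAD2/LAD2 2 of 25 were called, where 6.15% of all were, with 0 genes down and 2 that rose: RT1-DMa, a chain of the peptide exchange factor (0.29 ± 0.08, adjusted p 0.00989), and Rfxap, a subunit of the X box factor RFX (0.14 ± 0.04, adjusted p 0.0180). In HAD1/LAD1, P/NP and sP/sNP 0 passed by limma, with 7, 2 and 0 of 25 probe sets at an unadjusted p under 0.05. Of all 21204 tested probe sets, 2911, 1275 and 242 had such a p, and 4.91%, 0% and 0% were called. The median difference of the list lay between -0.01 and 0.02 in the 5 pairs. The endosomal proteases, Ifi30, Irf1 and the turnover genes did not pass in any pair where they were measured.

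The 4 RT1 member genes lie on chromosome 20 in the order RT1-Da, RT1-Db1, RT1-Ba and RT1-Bb by the gene order of GRCr8, with RT1-Db2 and Arrb2-ps between RT1-Da and RT1-Db1. Cd74 lies on chromosome 18 and Ciita on chromosome 10. Beyond RT1-Bb follow RT1-DOb and then genes of peptide supply to class I. Tap2, a peptide transporter subunit, was lower in the arrays labelled AA, at -0.38 ± 0.08 (adjusted p 0.00102, limma), and Psmb8, an immunoproteasome subunit, was -0.47 ± 0.15 there (adjusted p 0.0519). Psmb8 was higher in HAD1 and HAD2 (0.59 ± 0.16 and 0.54 ± 0.16). Neighbours thus differed in both directions within 1 pair, RT1-Ba 1370822_at higher and RT1-Bb and Tap2 lower in the arrays labelled AA.

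**Figure D5:**
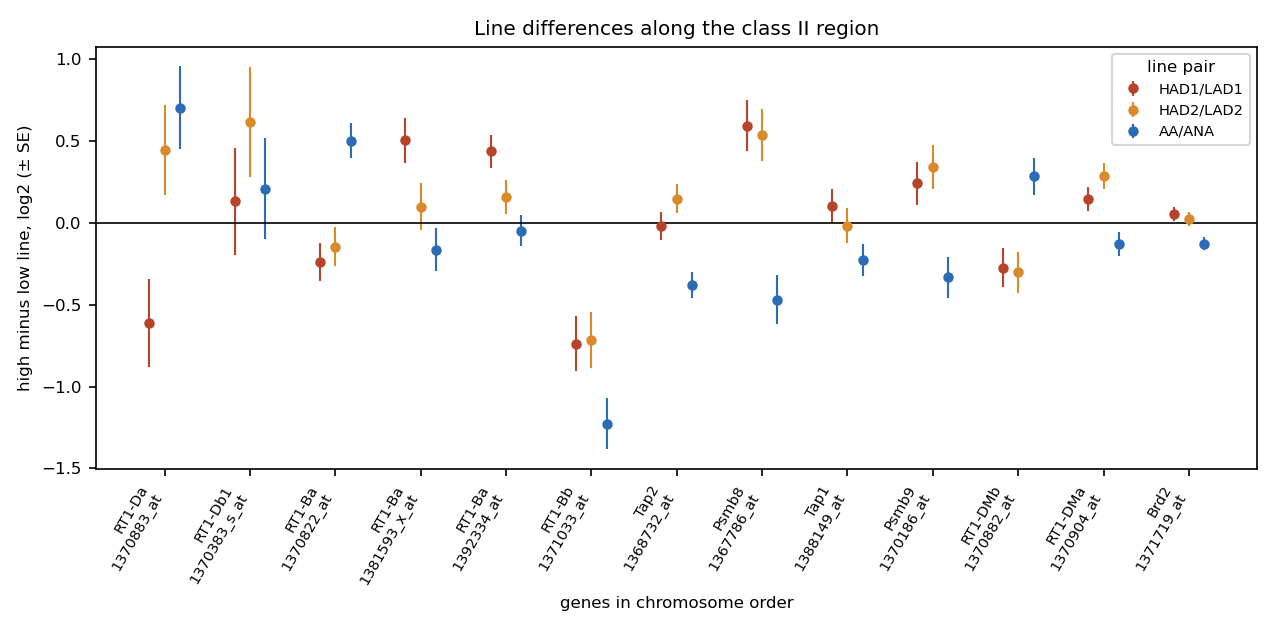
Difference of the high- minus the low-consumption line on the log2 scale (y axis, ± standard error of the fit) for tested probe sets of genes in chromosome order (x axis, not to scale), in the 3 pairs where RT1-Bb was lower. RT1-Bb is the lowest point in all 3 pairs (-0.74, -0.72 and -1.23), while its neighbours lie on both sides of 0.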

How the data were processed

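Ventral tegmental area RNA of 91 rats was measured on 1 array each. Per the labels' protocols, biotin cRNA was prepared from 25 ng of RNA. For 31099 probe sets the authors deposited signals on the log2 scale, and the submitters' processing notes name RMA. Which version was used, and which arrays were normalized jointly, is not given in the sources used here. RMA equalises arrays within a run, so levels are comparable within a pair at most. Arrays have no read depth, and their number per line limits the precision.

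Samples were grouped by line from the labels. No label tells whether rats of a line are littermates, so p-values measure the spread between these animals. Control probe sets (57) were left out. The platform annotation gave 20826 probe sets 1 symbol, 436 several and 9780 none, and 20758 were found by gene ID in the RefSeq genes of GRCr8, used for names and gene order. All columns had a sample.

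For each probe set, line means were fitted over all 91 arrays with limma's lmFit and eBayes (81 residual degrees of freedom). Tests were 2-sided and Benjamini-Hochberg adjusted over 21204 probe sets within a contrast, with a threshold of 0.05. For probe sets below the filter no test was made. Within-line correlations used the probe set with the highest mean of each gene. The fit and the permutation test were tested on simulated data. Animal numbers shared by the lines of P/NP and sP/sNP were checked for pairing. Alternatives were other filters, normalizations and variance priors, array weights, a replicate block, pairs fitted alone and arrays left out. Leaving out the 3 arrays that stood apart from the interaction, pathway and correlation results, and the block for the first 2 of these, was chosen after seeing the data.

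The members and the lists were chosen with earlier results of these data known. The rule for named genes took every member, called pathway genes with the 4 largest differences per pair, the 5 genes most like each member, defining markers, and called markers with a difference of at least 0.5. Cx3cr1 is among the defining markers, and Tap2 and Psmb8 were named as neighbours after their values were seen. Versions were R 4.3.3, limma 3.58.1, Python 3.11.15, numpy 2.4.6, scipy 1.17.1, pandas 2.3.3 and matplotlib 3.10.9.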

Additional observations from a re-analysis of the deposited data

Results flagged for a closer look

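In 17 of 120 groups of 1 member probe set in 1 line, a single array lay far from the others by Dixon's criterion, which chance meets in about 1 of 20 groups. They came from 11 arrays. The array LAD1 40 was highest for Cd74 (9.94, against 6.78 to 8.34 in the other LAD1 arrays), RT1-Ba 1370822_at (7.77), RT1-Db1 1370383_s_at (7.65) and RT1-Db1 1370382_at (4.48). LAD1 37 was highest for RT1-Ba 1381593_x_at (9.54, against 7.96 to 8.71). The array labelled ANA 20 was lowest for RT1-Bb 1371033_at (5.97, against 6.77 to 7.55), RT1-Ba 1381593_x_at (7.65) and Ciita 1369214_a_at (5.83). That labelled sNP 9 was highest for RT1-Da (7.68, against 5.42 to 6.27) and Cd74 (8.43).

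HAD1 25 was lowest for RT1-Da (6.95, against 8.08 to 8.68), and HAD2 5 highest for RT1-Db1 1370383_s_at (6.81). RT1-Ba 1370822_at was highest in P 1 (7.23) and NP 4 (7.23), arrays labelled so. Cd74 was lowest in the array labelled sP 9 (6.53). Ciita 1379381_at was highest in those labelled P 4 (5.60) and NP 8 (5.60).

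The difference of RT1-Bb 1371033_at depended on the pair among P/NP, AA/ANA and sP/sNP (adjusted p 2.67e-05, limma), at 0.05, -1.23 and 0.10. Without the 3 arrays that stood apart the adjusted p of this F test was 6.13e-07. The probe set passed the filter through ANA alone, so the test is no support beyond the AA/ANA difference.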

How the results depend on the processing

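The direction of every called member difference held under every alternative run. Counts in the HAD/LAD pairs show only what a setting changes, since the genes were chosen by values in those pairs. With the filter at the 60th percentile (8.58), RT1-Bb and RT1-Ba 1370822_at are not tested, and the counts of calls became 0 in HAD2/LAD2, 0 in AA/ANA and 0 for the interaction. With no filter HAD2/LAD2 had 2. With pairs fitted alone the counts were 1 in HAD1/LAD1, 3 in HAD2/LAD2 and 1 in AA/ANA, and with array weights 4 in AA/ANA and 4 for the interaction. The interaction count was 2 without the 3 arrays that stood apart, where RT1-Ba 1370822_at joined (adjusted p 0.0105). The cause of these changes was not tested beyond what each setting leaves out. Leaving out each array in turn gave 2 to 3 calls in HAD1/LAD1 (2 without HAD1 27 or HAD1 29), 1 in HAD2/LAD2, 0 in P/NP, 2 to 4 in AA/ANA, 0 in sP/sNP and 1 to 2 for the interaction, where leaving out LAD1 40, P 1, AA 1, AA 5 or AA 19 added RT1-Ba 1370822_at. Without the 2 arrays farthest from the Cd74 median, 3 of 40 relations passed, against 11.

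Shared animal numbers did not pair the samples: same-numbered deviations correlated from -0.69 to 0.67 in P/NP and from -0.40 to 0.30 in sP/sNP, and 0 numbers of either pair were best matched with their own. With the replicate block, 0 members were called in P/NP and 0 in sP/sNP, 1 for the interaction and 5 of the pathway list against 4 without it. The block called 23 of all probe sets in P/NP against 0. Dim signals limit what could be seen for Ciita and the 3 other untested probe sets.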
